A study of Arabidopsis thaliana with 14 samples.

Results

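The genes described here encode subunits of Polycomb repressive complex 2 (PRC2) of Arabidopsis thaliana, together with VAL1, a DNA-binding protein that works with Polycomb complexes. Of 10 loci chosen by name, 8 were among the 25414 named genes measured, namely FIE (AT3G20740), MSI1 (AT5G58230), CLF (AT2G23380), MEA (AT1G02580), EMF2 (AT5G51230), VRN2 (AT4G16845), FIS2 (AT2G35670) and VAL1 (AT2G30470). The other members of the set, SWN and LHP1, were not analysed here. Their RNA was followed by sequencing in whole embryos of ecotype Col-0, with no transgene or treatment named. The 7 stages were, from early to late, zygote, octant, globular, heart, torpedo, bent and mature. Each stage had 2 biological replicates, so there were 14 libraries, and what the numbers 1 and 2 stand for beyond that is not stated. Values are normalised reads per 20000000 reads of a library.

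PRC2 adds methyl groups to lysine 27 of histone H3, a mark of silenced genes. Each complex holds a catalytic subunit, which in Arabidopsis is CLF, SWN or MEA, a zinc-finger subunit, which is EMF2, VRN2 or FIS2, and the WD-repeat proteins FIE and MSI1. The form with MEA and FIS2 is known from the female gametophyte and the endosperm, the tissue that feeds the embryo, while the forms with CLF or SWN act in the plant body. VAL1 and its relative VAL2 carry a B3 domain that binds the RY element in DNA, and they are known to silence embryo regulators such as LEC1, FUS3 and ABI3 after germination.

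The DNA upstream of the members was searched for the RY core CATGCA, because it is the element that VAL proteins bind, and for 5 further motifs. These were the telobox AAACCCTA, the repeat GAGAGA, and the E2F-type letters TTTCCCGC, TTTGGCGC and TTTCGCGC. Each was looked for on both strands in the 300 bases before the annotated gene start (build TAIR10.1, RefSeq annotation). The windows of VAL1 and FIS2 are shown because they were the only ones of the 8 members with the RY core. That of FIE, the member with the largest change between consecutive stages, is shown for comparison. Capitals mark RY cores on either strand, sequences read 5′ to 3′ on the strand of the gene, and none of these windows overlaps another gene.
VAL1 (chr2:12985278-12985577, minus strand): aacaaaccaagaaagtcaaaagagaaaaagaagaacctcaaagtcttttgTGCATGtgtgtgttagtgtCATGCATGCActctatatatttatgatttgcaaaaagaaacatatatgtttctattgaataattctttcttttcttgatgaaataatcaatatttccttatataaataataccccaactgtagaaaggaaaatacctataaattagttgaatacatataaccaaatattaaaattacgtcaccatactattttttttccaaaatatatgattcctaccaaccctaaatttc
FIS2 (chr2:14992265-14992564, plus strand): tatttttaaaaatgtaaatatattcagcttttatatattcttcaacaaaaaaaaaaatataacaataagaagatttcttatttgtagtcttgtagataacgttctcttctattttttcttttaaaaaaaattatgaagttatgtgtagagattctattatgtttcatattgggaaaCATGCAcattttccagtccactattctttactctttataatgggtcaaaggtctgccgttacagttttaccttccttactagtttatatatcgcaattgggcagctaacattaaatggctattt
FIE (chr3:7252453-7252752, minus strand): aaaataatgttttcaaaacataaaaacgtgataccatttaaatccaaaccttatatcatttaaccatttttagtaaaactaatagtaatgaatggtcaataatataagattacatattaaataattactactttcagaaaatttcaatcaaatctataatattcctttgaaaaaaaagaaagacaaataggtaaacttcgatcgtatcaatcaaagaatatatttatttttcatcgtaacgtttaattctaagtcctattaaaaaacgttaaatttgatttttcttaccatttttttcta

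The VAL1 window held 4 RY cores, 3 of them overlapping in a single run, and that of FIS2 held 1. The RY core occurred in 10.3% of the 27443 windows of this length in the genome, and in 2 of the 8 members. GAGAGA occurred in 23.6% of all windows and upstream of CLF and MSI1. No member held the telobox, which 5.21% of windows held, or an E2F-type motif, which 0.689%, 0.419% and 0.208% of windows held. A match is a run of letters and was not measured as a bound site.

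Sequencing depth was 6078186 to 30803336 reads per library, and named genes took 5403798 to 27500092 of them. Across genes the libraries of a stage correlated with r between 0.949 and 0.980. All values are relative to the rest of a library, and the median change of all 18744 genes tested was itself shifted. It was 0.92 on the log2 scale in octant against zygote, -0.63 in globular against octant, 0.59 in heart against globular, 0.19 in torpedo against heart, -0.54 in bent against torpedo, -0.57 in mature against bent and -0.16 in mature against zygote. The 10 embryo markers summed to 10283 or more in each library, with EM1 at 0 in octant replicate 1, WOX2 at 0 in bent replicate 1 and WOX8 at 0 in both bent and both mature libraries, and the seed coat markers BAN, AHA10, INO, MYB5 and MUM4 summed to 2838 to 4382 in zygote libraries, 15157 and 16127 in octant libraries, 347 and 421 in globular libraries and 20.3 and 23.5 in mature libraries. The part of seed coat RNA in the octant values of the members was not tested. In whole embryos, fewer cells of a type and less RNA per cell cannot be told apart.

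FIE, the WD-repeat protein that all PRC2 forms share, was close to the bottom of its range in the zygote and the mature embryo and high between them. It had 11.6 and 28.0 reads per 20000000 in the zygote, 611 and 610.3 in octant, 471 and 247 in globular, 1467 and 1347 in heart, 2004 and 977 in torpedo, 757 and 335 in bent and 34.4 and 49.9 in mature embryos. Both zygote libraries lay below both libraries of every other stage, and the torpedo mean was 75.2 times the zygote mean. FIE rose in octant against zygote by 4.78 ± 0.50 (log2 change ± SE of the limma fit, adjusted p = 5.85e-06). The rank of FIE, which does not depend on the scaling of a library, moved with it. FIE exceeded 82.5% and 80.8% of named genes in octant, against 42.7% and 50.1% in the zygote. The zygote values rest on 12 and 19 reads, with 95% Poisson intervals of 6.01 to 20.3 and 16.9 to 43.8 that cover counting error only.

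In heart against globular embryos FIE rose by 2.03 ± 0.50 (adjusted p = 0.00673), while it fell in bent against torpedo (-1.47 ± 0.50, adjusted p = 0.0423) and in mature against bent (-3.48 ± 0.50, adjusted p = 3.04e-05). The mature libraries lay above both zygote libraries, but that difference of 1.02 ± 0.50 did not pass the test (adjusted p = 0.0876). With the median of each library set equal it did, at 1.43 (adjusted p = 0.0107, against 0.00529 to 0.186 over all alternatives). The rise in heart was lost with medians set equal (1.21, adjusted p = 0.0593) and without globular replicate 2 (adjusted p = 0.0633). The fall in bent was lost with medians set equal (-0.82, adjusted p = 0.230) and without each of 6 libraries (adjusted p up to 0.362), as listed with the processing. The library kit does not mark strand, and 5.89% of the exonic bases of FIE overlap AT3G20730 or a non-coding RNA on the other strand. AT3G20730 itself was at 0 to 18.8 in all libraries.

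MSI1, the histone-binding WD-repeat subunit that also serves in chromatin assembly, followed a like course. It had 73.7 and 114 in the zygote, 449 and 842 in octant, 865 and 669 in globular, 818 and 831 in heart, 1849.9 and 1684 in torpedo, 659.6 and 776 in bent and 78.2 and 139.9 in mature embryos. The torpedo libraries were above all others, and those of the zygote and the mature stage overlapped. MSI1 rose in octant against zygote by 2.70 ± 0.40 (adjusted p = 6.66e-05) and fell in mature against bent (-2.72 ± 0.40, adjusted p = 3.33e-05). It also fell in bent against torpedo (-1.30 ± 0.40, adjusted p = 0.0255), a call lost with medians set equal (-0.65, adjusted p = 0.237) and without either torpedo or either bent library (adjusted p up to 0.132). The torpedo libraries did not overlap those of heart, yet the difference of 1.09 ± 0.40 missed the threshold (adjusted p = 0.0567). The ratio of FIE to MSI1 reads was 1.36 and 0.725 in octant, against 0.158 and 0.247 in the zygote, which puts both octant libraries above both zygote libraries. A stretch of 8.12% of the exonic bases of MSI1 overlaps AT5G58240 on the other strand, where reads of the pair cannot be told apart. AT5G58240 had 151 and 142 in the zygote, above MSI1 in both libraries. It had 872 and 554 in torpedo and 28.2 and 40.1 in mature embryos, and its part in the MSI1 values was not tested.

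**Figure D1:**
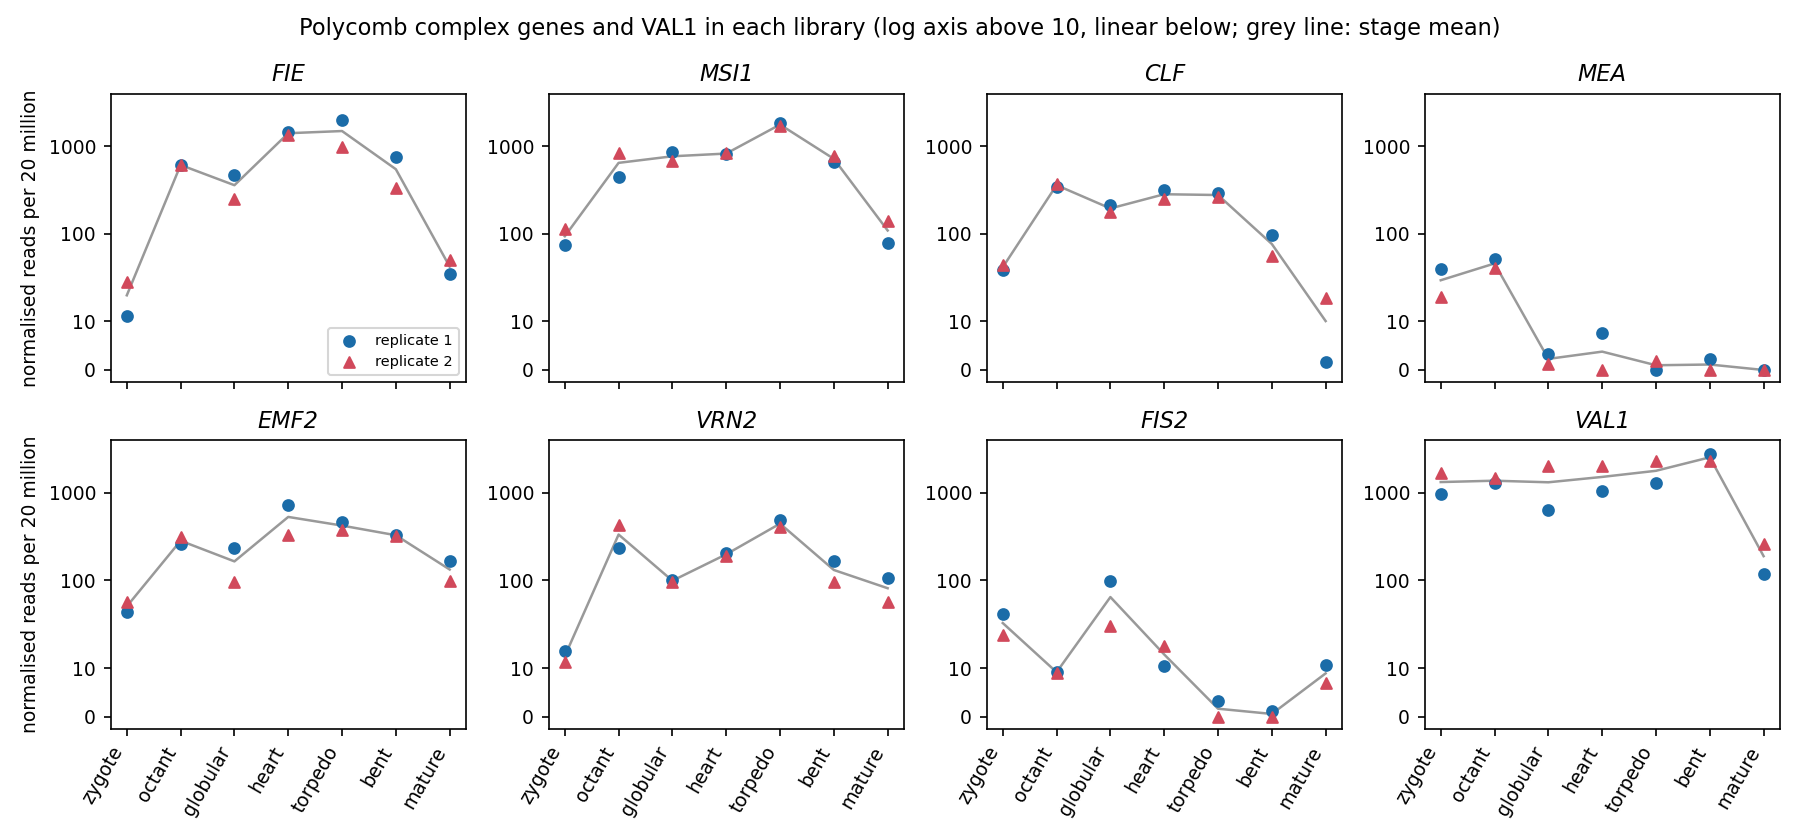
Normalised reads per 20000000 (log axis above 10, linear below) of the 8 members by stage, with points for libraries and lines for stage means (n = 2). FIE, MSI1, CLF, EMF2 and VRN2 are higher in octant than in zygote libraries, MEA and FIS2 stay below 100, and VAL1 is above 600 in all libraries up to the bent stage and between 119 and 260.2 in mature libraries.

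CLF, a catalytic subunit known from the plant body, was highest in octant. It had 38.8 and 44.2 in the zygote, 344 and 374 in octant, 214 and 176 in globular, 316 and 250.2 in heart, 292 and 262 in torpedo, 96.6 and 56.3 in bent and 1.56 and 18.6 in mature embryos. The octant libraries were above those of each other stage, and the heart and torpedo libraries overlapped. CLF rose in octant against zygote by 2.997 ± 0.55 (adjusted p = 0.000327), fell in bent against torpedo (-1.85 ± 0.55, adjusted p = 0.0210), and fell in mature against bent (-2.80 ± 0.55, adjusted p = 0.000431). It also fell in mature against zygote (-2.02 ± 0.55, adjusted p = 0.00439). The mature values rest on 1 and 19 reads, and without mature replicate 1 the fall relative to the zygote missed the threshold (adjusted p = 0.0967). The fall in bent embryos was lost with medians set equal (-1.20, adjusted p = 0.0960) and without torpedo replicate 1, torpedo replicate 2 or bent replicate 2 (adjusted p up to 0.163). The fall in mature against bent was -1.41 with medians set equal (adjusted p = 0.0177) and was lost with the compared stages alone (adjusted p = 0.0839). AT2G23370 and AT2G23390 on the other strand overlap 2.28% of the exonic bases of CLF. They had 560 and 714, and 214 and 273, in the octant libraries, and reads from the overlap cannot be told apart.

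MEA, the catalytic subunit of the endosperm form, which is expressed from the maternal allele there, was found in the zygote and octant and hardly afterwards. It had 39.8 and 19.2 in the zygote, 51.1 and 40.5 in octant, 3.29 and 1.27 in globular, 7.55 and 0 in heart, 0 and 1.95 in torpedo, 2.25 and 0 in bent and 0 and 0 in mature embryos. No library from globular on had more than 5 reads of MEA, and it passed the filter on low values through its zygote and octant libraries alone. It fell in globular against octant (-2.998 ± 0.52, adjusted p = 0.000388) and in mature against zygote (-2.99 ± 0.52, adjusted p = 0.000124), while octant and zygote differed by 0.64 ± 0.52 (adjusted p = 0.309), or by -0.50 with medians set equal (adjusted p = 0.440). The fall in globular missed the threshold with DESeq2 (-3.92, adjusted p = 0.0624) and was -1.75 with a pseudocount of 16. In the mature embryo 0 of 33227933 reads came from MEA, with an upper 95% Poisson limit of 2.22 per 20000000. The octant value over both libraries was 48.4 (95% Poisson interval 38.6 to 59.9). That point value was 26.8 times the floor of 3 reads over the mature stage, a ratio that is not a lower bound. Counts of reads alone put MEA in globular at 1.84 per 20000000 over both libraries, with a 95% Poisson interval of 0.222 to 6.63.

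Within a library, the share of MEA among the reads of CLF and MEA, each divided by its exon length, does not depend on scaling. It was 17.8% and 13.6% in octant, against 59.9% and 38.7% in the zygote. From globular on it was at most 3.37%. Before division by length, MEA made up 12.9% of 511 reads (95% Wilson interval 10.3 to 16.1) and 9.78% of 184 reads (6.28 to 14.9) in octant, against 50.6% of 81 reads (40.0 to 61.2) and 30.2% of 43 reads (18.6 to 45.1) in the zygote. The 4 intervals overlap within each stage but not between the stages, and 2 libraries against 2 allow no exact permutation p below 0.333. SWN is not part of this share.

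**Figure D2:**
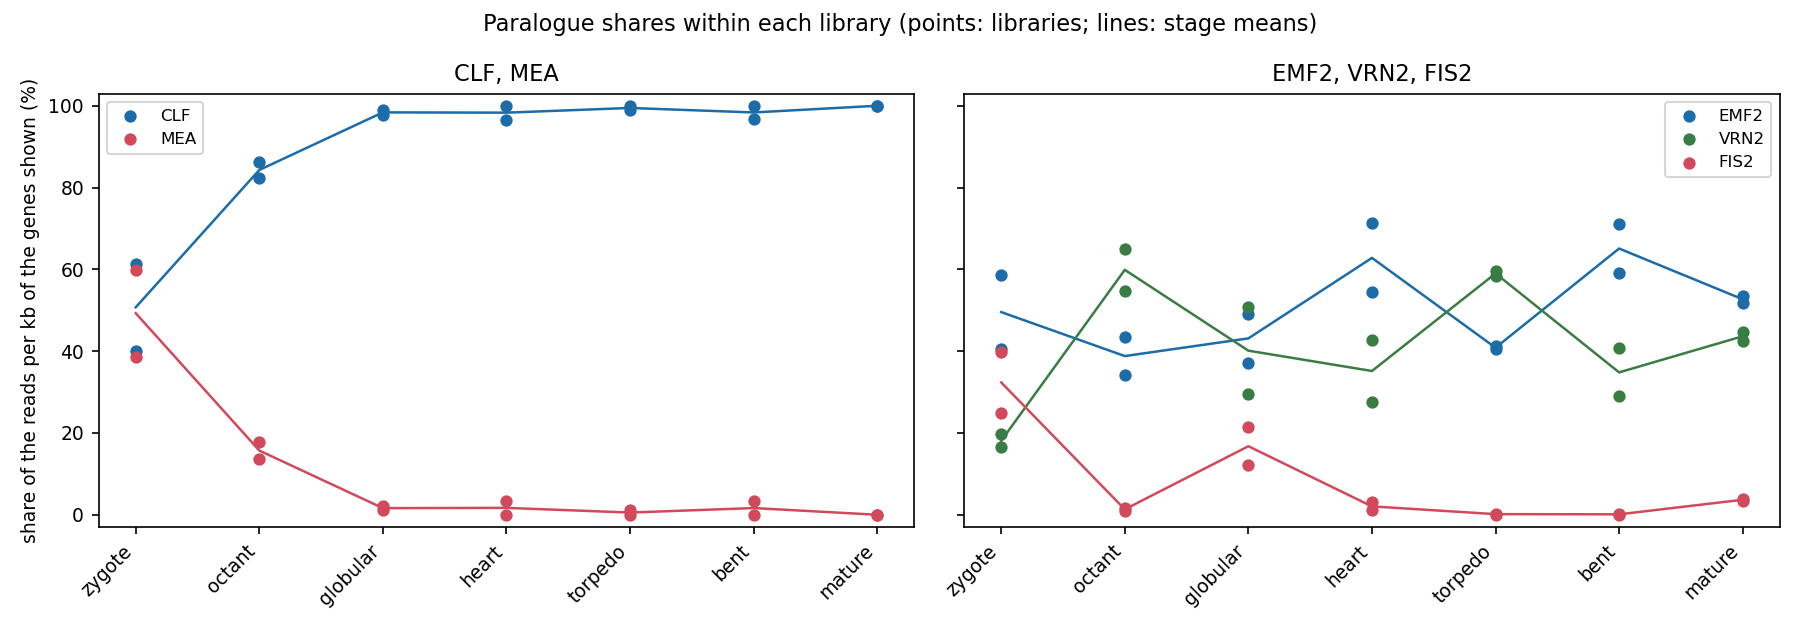
Share in percent of MEA and CLF (left) and of EMF2, VRN2 and FIS2 (right) in the reads per kb of their group, by library from the zygote to the mature stage. MEA falls to 17.8% and 13.6% in octant, against 59.9% and 38.7% in the zygote, and VRN2 holds the most of its group in the octant and torpedo libraries and in globular replicate 2.

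EMF2, the zinc-finger subunit known for keeping the plant vegetative, had 43.6 and 57.5 in the zygote, 258 and 311 in octant, 234 and 96.7 in globular, 729 and 334 in heart, 469 and 378 in torpedo, 334 and 323 in bent and 169 and 97.8 in mature embryos. Its zygote libraries were the lowest, and those of globular and mature embryos overlapped. EMF2 rose in octant against zygote by 2.41 ± 0.48 (adjusted p = 0.000678) and in heart against globular by 1.69 ± 0.48 (adjusted p = 0.0145). In mature against bent embryos it fell (-1.32 ± 0.48, adjusted p = 0.0277), and it rose in mature against zygote (1.29 ± 0.48, adjusted p = 0.0278). With the median of each library set equal, EMF2 differed by 0.06 in mature against bent (adjusted p = 0.921), so the direction depends on the scaling. The rise in heart was 0.86 with medians set equal and was lost there (adjusted p = 0.187), as with upper-quartile scaling, quantile normalization, edgeR, DESeq2 and the compared stages alone. It was also lost without globular replicate 2 or heart replicate 1 (adjusted p up to 0.168), the fall in mature embryos without bent replicate 1, bent replicate 2 or mature replicate 2 (up to 0.188), and the rise over the zygote without zygote replicate 1, zygote replicate 2 or mature replicate 1 (up to 0.193).

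VRN2, the subunit known for keeping FLC silent after cold, had 2 high stages. It had 15.5 and 11.8 in the zygote, 237 and 432 in octant, 102 and 96.7 in globular, 207 and 191 in heart, 485 and 406 in torpedo, 167 and 96.1 in bent and 106 and 56.7 in mature embryos. The octant and torpedo libraries overlapped each other, and both octant libraries were above both globular libraries. VRN2 rose in octant against zygote by 4.21 ± 0.45 (adjusted p = 6.61e-06), fell in globular against octant (-1.65 ± 0.45, adjusted p = 0.00991) and fell in bent against torpedo (-1.77 ± 0.45, adjusted p = 0.00948). The difference between torpedo and heart, 1.14 ± 0.45, missed the threshold (adjusted p = 0.0766). In mature against zygote VRN2 rose by 2.22 ± 0.45 (adjusted p = 0.000498). The fall in globular was -0.86 with medians set equal and was lost there (adjusted p = 0.145), as with upper-quartile scaling, quantile normalization, DESeq2, the compared stages alone and without octant replicate 2 (adjusted p = 0.124). The fall in bent embryos was lost with medians set equal (-1.13, adjusted p = 0.0829) and without torpedo replicate 1 or bent replicate 2 (up to 0.102).

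FIS2, the zinc-finger subunit of the endosperm form, was low throughout, with 0 to 43 reads per library. It had 41.7 and 23.6 in the zygote, 9.29 and 9.01 in octant, 98.7 and 30.5 in globular, 10.6 and 18.0 in heart, 3.28 and 0 in torpedo, 1.12 and 0 in bent and 10.95 and 6.85 in mature embryos. It was lower in octant than in both neighbouring stages, whereas MEA was higher in octant than in globular. FIS2 fell in octant against zygote (-1.43 ± 0.54, adjusted p = 0.0339), rose in globular against octant (2.18 ± 0.54, adjusted p = 0.00549) and fell in heart against globular (-1.73 ± 0.54, adjusted p = 0.0229). It then fell in torpedo against heart (-1.73 ± 0.54, adjusted p = 0.0292) and rose in mature against bent (1.49 ± 0.54, adjusted p = 0.0273), and it fell in mature against zygote (-1.48 ± 0.54, adjusted p = 0.0255).

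Each FIS2 call was lost when some library was left out, namely zygote replicate 1 or either octant library in octant against zygote (adjusted p up to 0.214), globular replicate 1 in globular against octant (0.0647), and globular replicate 1 or heart replicate 1 in heart against globular (up to 0.223). The others were lost without either heart library or torpedo replicate 2 in torpedo against heart (up to 0.210), either bent library or mature replicate 1 in mature against bent (up to 0.149), and zygote replicate 1 or mature replicate 2 in mature against zygote (up to 0.176). The fall in mature against zygote was also lost with medians set equal (-1.07, adjusted p = 0.1003). With a pseudocount of 1 the calls in octant against zygote, heart against globular and mature against zygote were lost. A pseudocount of 16 lost those in torpedo against heart and mature against bent. The rise in mature against bent rests on 7 and 7 reads, against 1 and 0 in bent embryos. It ran from 0.58 to 4.56 over the alternatives that keep all libraries. Of the exonic bases of FIS2, 1.68% overlap AT2G35680 on the other strand, a gene with 559 to 5833 reads per 20000000, and reads from that stretch cannot be told apart.

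MEA and FIS2 are known from endosperm, so its markers are given beside them. The 12 endosperm markers measured summed to 284 and 338 in the zygote, 573 and 518 in octant, 698 and 798 in globular, 540.5 and 598 in heart, 528 and 686 in torpedo, 453 and 384 in bent and 185 and 148 in mature embryos. Of these markers AGL28, AGL90, MYB64, IKU2 and MINI3 were at 0 in zygote replicate 1, and MYB64 was at 0 in all libraries up to torpedo. In globular against octant 2 of the 8 endosperm markers tested rose, CKX2 by 2.09 (adjusted p = 0.00394) and MYB118 by 3.12 (adjusted p = 0.000251), and 1 fell, AGL90 (-1.90, adjusted p = 0.00817), a fall lost with medians set equal. Of all genes tested 7.02% were called higher and 31.5% lower at this step. AGL90 was at 0 in globular replicate 1 and in both zygote libraries. Unlike CKX2 and MYB118, it did not meet the rule on level and overlap by which list genes were named. Genes on the other strand overlap 38.6% of the exonic bases of CKX2, and reads from there cannot be told apart. The median change of the 8 was -0.78, against -0.63 for all genes. Markers at 10 or more numbered 6 and 6 in globular libraries, against 9 and 7 in octant libraries, and MINI3 was at 0 in both globular libraries but in neither octant library. Summed over the 5 of 12 listed seed coat markers that were measured, values were highest in octant. That is the stage in which MEA was highest and FIS2 lower than in its neighbours. BAN, AHA10 and MYB5 rose in octant against zygote, while INO had a higher mean in the zygote (761) than in octant (596). MUM4 rose later, in torpedo against heart, to a mean of 516. Genes on the other strand overlap 100% of the exonic bases of MYB5 and 57.3% of those of MUM4. The part of these tissues in the MEA and FIS2 values was not tested. Nor was it tested for the other members, including the octant rises of FIE, MSI1, CLF, EMF2 and VRN2.

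Among the 3 zinc-finger genes, the make-up of the reads per kb differed by stage. VRN2 held 54.8% and 64.9% in octant, against 19.7% and 16.5% in the zygote. FIS2 held 1.62% and 1.02% in octant, against 39.9% and 24.8% in the zygote, and 21.4% and 12.1% in globular. The ranges of octant and zygote did not overlap for either gene. In torpedo VRN2 held 58.5% and 59.5% and EMF2 41.2% and 40.5%, while in bent embryos EMF2 held 59.1% and 71.0% and VRN2 40.7% and 29.0%. Per kb of exon, torpedo and bent libraries thus had the order of EMF2 and VRN2 turned round, a comparison within libraries that no test covered. Before division by length, VRN2 made up 50.7% and 51.8% of the reads in torpedo, with Wilson intervals that overlapped those of EMF2. The order in torpedo is thus not settled without that division. EMF2 led before division in bent embryos, with 66.4% and 77.1%, and in octant replicate 1, with 51.2%.

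VAL1 was high up to the bent stage and passed the test in none of the consecutive comparisons until the last, in which it fell. It had 960.0 and 1700.1 in the zygote, 1295 and 1462 in octant, 632 and 2012 in globular, 1039 and 2007 in heart, 1292 and 2285 in torpedo, 2759 and 2340.0 in bent and 119 and 260.2 in mature embryos. Replicate 1 was below replicate 2 in 6 of the 7 stages, and the libraries of each pair of consecutive stages from the zygote to torpedo overlapped. VAL1 fell in mature against bent (-3.82 ± 0.55, adjusted p = 2.70e-05) and in mature against zygote (-2.83 ± 0.55, adjusted p = 0.000320). None of the other consecutive comparisons passed under any scaling tried. On the deposited scale the largest of these differences was 0.56 ± 0.55 in bent against torpedo (adjusted p = 0.484). With medians set equal it was 1.21 there (adjusted p = 0.128), while the difference in octant against zygote was -1.03 (adjusted p = 0.113, against 0.11 as deposited). The sign of each of the other 3 turned as well, so the signs of the differences up to torpedo depend on the scaling.

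The rank of VAL1 was 71.0% and 78.1% of named genes below it in mature embryos, against 96.6% and 96.9% in bent embryos and 90.0% and 93.4% in the zygote. Per kb of exon, VAL1 had 282 and 499.7 reads per 20000000 in the zygote, above the 45.3 and 69.8 of MSI1, the next member, and the 7.44 and 17.9 of FIE. In torpedo it had 379.9 and 672 per kb, below the 1138 and 1035 of MSI1 and the 1282 of FIE in replicate 1, while in replicate 2 FIE had 625. In bent embryos VAL1, with 811 and 688 per kb, was again the highest member in both libraries. Levels per kb depend on the annotated exons, and a bias of the RNA amplification along transcripts was not measured.

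**Figure D3:**
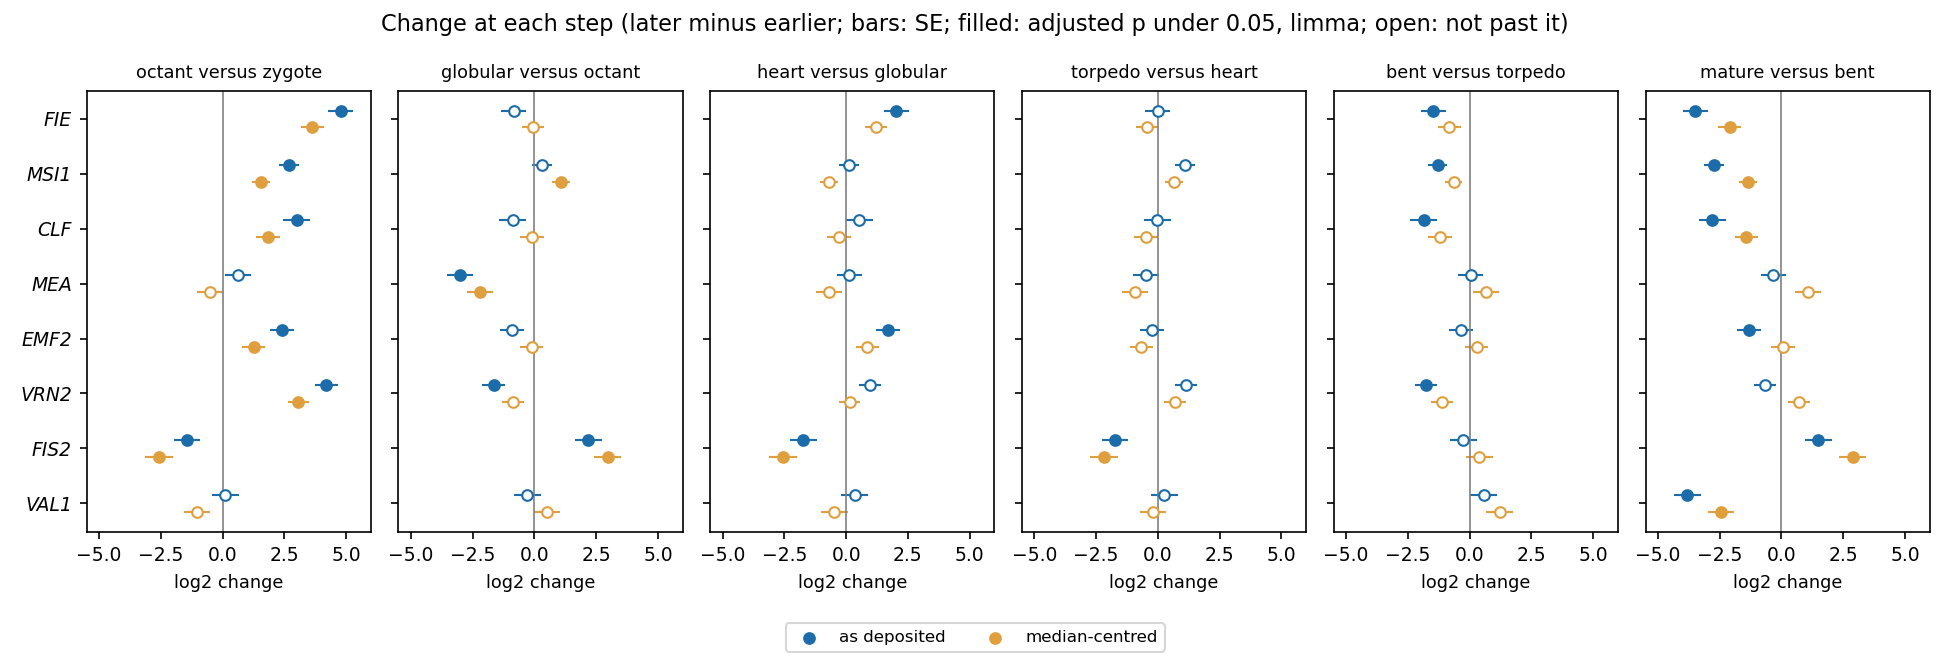
Log2 change (later minus earlier stage) ± SE from limma for each of the 8 members in the 6 consecutive comparisons, on the deposited scale (blue) and with each library centred on its median (orange), filled where the adjusted p was under 0.05. FIE, VRN2, CLF, MSI1 and EMF2 are right of 0 and filled on both scales in octant against zygote, and VAL1, FIE, CLF and MSI1 are left of 0 and filled on both in mature against bent.

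Set beside all genes tested, the members' counts of calls were as follows. In octant against zygote 6 of 8 members were called, 5 that rose and 1 that fell, where 57.8% of all genes tested were called, 44.7% higher and 13.1% lower. The members' median change was 2.55, against 0.92 for all genes. In globular against octant 1 rose and 2 fell (7.02% and 31.5% of all genes, 38.5% either way), in heart against globular 2 rose and 1 fell (27.7% and 6.90%, 34.5% either way), and in torpedo against heart 0 rose and 1 fell (16.3% and 9.17%, 25.4% either way). In bent against torpedo 0 rose and 4 fell (5.46% and 22.0%, 27.5% either way), in mature against bent 1 rose and 5 fell (18.2% and 40.1%, 58.4% either way), and in mature against zygote 2 rose and 4 fell (29.6% and 35.6%, 65.2% either way). MEA is among the falls counted in globular against octant and in mature against zygote. Its zygote and octant values alone admitted it to the test, which limits both of these calls. The F test over stages passed for all 8, as for 97.1% of all genes. The members' median change in mature against bent was -2.02, against -0.57 for all genes.

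With each library centred on its median, 5 of 8 members rose and 1 fell in octant against zygote, where 21.2% of all genes were called higher and 29.4% lower. The 5 rises were then 1.27 for EMF2 to 3.64 for FIE. In globular against octant 2 rose and 1 fell (17.3% and 15.2% of all genes), in heart against globular 0 rose and 1 fell (9.83% and 17.2%), in torpedo against heart 0 rose and 1 fell (10.5% and 16.7%), and in bent against torpedo 0 rose and 0 fell (9.93% and 9.28%). In mature against bent 1 rose and 4 fell (43.7% and 21.9%), and in mature against zygote 3 rose and 3 fell (35.3% and 31.0%). The 4 falls in mature against bent were then -2.44 for VAL1, -2.10 for FIE, -1.41 for CLF and -1.34 for MSI1. Of 29 calls among the 56 pairs of member and comparison, 11 held under all alternatives that tested them and with each library left out. These were FIE, VRN2, MSI1, CLF and EMF2 in octant against zygote, FIE, VAL1 and MSI1 in mature against bent, and VAL1, MEA and VRN2 in mature against zygote. The MEA call is limited, because its high zygote and octant values alone admitted it to the test. The mature libraries held no MEA read, and the stricter filter did not test MEA, though the call held with no filter.

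Proteins that work with VAL1 or in PRC1, the complex that ubiquitinates histone H2A, were measured for 11 of 17 listed genes. In octant against zygote 3 rose and 1 fell, where 44.7% of all genes rose and 13.1% fell, and the median of the 11 was 0.50, against 0.92 for all genes. With library medians set equal 1 rose and 4 fell, where 21.2% and 29.4% of all genes did. The 1 that fell was VAL2, the close relative of VAL1, with 232 and 479.7 in octant, against 1289.7 and 927 in the zygote (log2 change -1.70, adjusted p = 0.00380). EBS, a reader of the PRC2 mark, rose to 4668 and 4806 in octant, against 885 and 1124 in the zygote (2.24, adjusted p = 6.35e-05), and the deacetylase HDA6 (1.83) and EMF1 (1.33) also rose. VAL1 was not called in that comparison, and whether VAL1 and VAL2 differed in their change was not tested.

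In mature against bent 0 of the 11 rose and 5 fell (18.2% and 40.1% of all genes), and with medians set equal 5 rose and 3 fell (43.7% and 21.9%), so the split depends on the scaling. BMI1A, a ring-finger protein of PRC1, had 12.5 and 17.6 in mature embryos, against 649 and 747 in bent embryos (-5.21, adjusted p = 1.27e-07). VAL2 had 34.4 and 52.8 in mature embryos, against 897 and 421 in bent embryos (-3.73, adjusted p = 3.98e-06), so both VAL genes fell in this comparison. BMI1A otherwise rose in globular against octant (1.06, adjusted p = 0.0497) and in heart against globular (1.24, adjusted p = 0.0281). The other counts were 1 rise and 0 falls in globular against octant, 1 and 1 in heart against globular and in torpedo against heart, 0 and 2 in bent against torpedo, and 1 and 5 in mature against zygote. These became 4 and 0, 0 and 3, 0 and 1, 0 and 0, and 2 and 4 with medians set equal. The shares of all genes at each step, given with the members' counts, apply to these and to the counts of the next lists.

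Proteins that bind PRC2 or resemble MSI1 were measured for 12 of 20 listed genes. In octant against zygote 7 rose and 3 fell (44.7% and 13.1% of all genes), against 4 and 4 with medians set equal (21.2% and 29.4%). Their median change was 1.75 as deposited, against 0.92 for all genes. MSI2, a relative of MSI1, had 1233 and 1198 in octant, against 53.3 and 89.9 in the zygote (4.05, adjusted p = 7.22e-06). VRN5, a PHD-finger protein that joins VRN2 at FLC, had 403 and 394 in octant, against 27.2 and 47.2 in the zygote (3.33, adjusted p = 0.000106). VEL2, of the same PHD-finger family, had 41.8 and 38.3 in octant, against 144 and 147 in the zygote (-1.77, adjusted p = 0.00284).

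In bent against torpedo 0 of these 12 rose and 7 fell (5.46% and 22.0% of all genes), against 0 and 4 with medians set equal (9.93% and 9.28%). The named falls were those of MSI relatives, with log2 changes of -3.51 for MSI2 (adjusted p = 6.65e-05), -3.01 for MSI3 (adjusted p = 0.000246) and -2.68 for MSI5 (adjusted p = 0.000230). In mature against bent 4 rose and 4 fell (18.2% and 40.1% of all genes), against 6 and 1 with medians set equal (43.7% and 21.9%). At this step VRN5 fell (-3.48, adjusted p = 4.42e-05) and MSI4 rose (2.25, adjusted p = 0.000172). MSI1 and MSI4 thus went opposite ways at that step. The counts were 0 rises and 3 falls in globular against octant, 6 and 1 in heart against globular, 0 and 3 in torpedo against heart and 3 and 5 in mature against zygote. With medians set equal they were 0 and 0, 2 and 1, 0 and 7, and 3 and 4.

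Demethylases of the PRC2 mark and genes listed with the Trithorax group, PKL among them, were measured for 10 of 14 listed. In octant against zygote 6 rose and 0 fell (44.7% and 13.1% of all genes), against 2 and 3 with medians set equal (21.2% and 29.4%). Their median change was 1.21 as deposited, against 0.92 for all genes. JMJ30, a demethylase, had 1031 and 1209 in octant, against 112 and 114 in the zygote (3.27, adjusted p = 0.000220). In mature against bent 3 rose and 1 fell (18.2% and 40.1% of all genes), against 8 and 1 with medians set equal (43.7% and 21.9%). ATX1, a methyltransferase for the active mark on lysine 4, had 8983 and 14127 in mature embryos, against 1328 and 844 in bent embryos (3.41, adjusted p = 2.29e-06). ULT1, a Trithorax factor, had 1.56 and 56.7 in mature embryos, against 2877 and 2067 in bent embryos (-7.05, adjusted p = 1.59e-06).

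The demethylase ELF6 rose in mature against bent as well, by 1.78 (adjusted p = 0.000407), and in mature against zygote by 2.11 (adjusted p = 7.31e-05). The Trithorax relative ULT2 fell in bent against torpedo (-4.14, adjusted p = 0.000209). Counts of rises and falls were 0 and 3 in globular against octant, 1 and 1 in heart against globular, 2 and 0 in torpedo against heart, 0 and 3 in bent against torpedo and 5 and 2 in mature against zygote. With medians set equal they were 0 and 0, 0 and 2, 1 and 0, 0 and 1, and 5 and 2.

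Genes known as targets of Polycomb or VAL proteins were measured for 21 of 26 listed, of which 20 passed the filter. LEC1, a central embryo regulator and VAL target, had 30064 and 21555 in the zygote, 15719.9 and 12261 in octant, 22329 and 34300.3 in globular, 9022 and 18665 in heart, 1712 and 891 in torpedo, 26.97 and 19.9 in bent and 0 and 10.8 in mature embryos. It fell in torpedo against heart (-3.39, adjusted p = 0.000524) and in bent against torpedo (-5.51, adjusted p = 9.11e-06), steps in which VAL1 was not called. LEC2 fell in bent against torpedo too (-3.63, adjusted p = 0.000115). The dormancy gene DOG1 went the other way at that step, with 1968 and 1886 in bent embryos, against 16.4 and 6.49 in torpedo embryos (7.04, adjusted p = 1.28e-06). The floral repressors MAF4 and MAF5, which lie in the FLC family, rose at the same step by 4.45 (adjusted p = 8.01e-06) and 3.35 (adjusted p = 0.000814).

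ABI3, a B3-domain regulator of seed maturation, had 675 and 781 in globular, against 51.1 and 40.5 in octant (3.88, adjusted p = 4.68e-05). It rose again in heart against globular, by 1.92 (adjusted p = 0.0109), as did FUS3, by 2.36 (adjusted p = 0.00280), and FLC, by 2.51 (adjusted p = 0.000567). A non-coding RNA on the other strand overlaps 100% of the exonic bases of FLC. The kit does not mark strand, so reads of FLC and that RNA cannot be told apart. The floral genes AG (-3.65, adjusted p = 0.000741) and AP3 (-3.60, adjusted p = 4.26e-05) fell in globular against octant. AG had 46.1 and 72.5 in globular, against 409 and 1462 in octant, and seed coat markers also differed between these stages, whose part in the AG values was not tested. BBM, an embryo-inducing transcription factor, rose in octant against zygote by 4.57 (adjusted p = 1.99e-05).

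In mature against bent 0 of the 20 targets tested rose and 9 fell, where 18.2% of all genes rose and 40.1% fell, so the share of falls was close to that of all genes. After centring on medians 4 rose and 4 fell (43.7% and 21.9% of all genes). The targets' median change was -1.07 as deposited, against -0.57 for all genes. L1L, a relative of LEC1 (-6.28, adjusted p = 2.15e-06), and the MADS-domain gene AGL15 (-5.57, adjusted p = 1.44e-06) fell in the comparison in which VAL1 and VAL2 fell. No relation between VAL genes and targets was tested. The other counts of rises and falls were 4 and 4 in octant against zygote, 7 and 5 in globular against octant, 4 and 1 in heart against globular, 3 and 4 in torpedo against heart, 3 and 2 in bent against torpedo and 7 and 7 in mature against zygote. With medians set equal they were 2 and 10, 9 and 3, 2 and 6, 2 and 4, 4 and 2, and 8 and 7. Upstream windows of the 21 held the RY core in 5 (10.3% of all windows), GAGAGA in 12 (23.6%) and the telobox in 2 (5.21%).

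**Figure D4:**
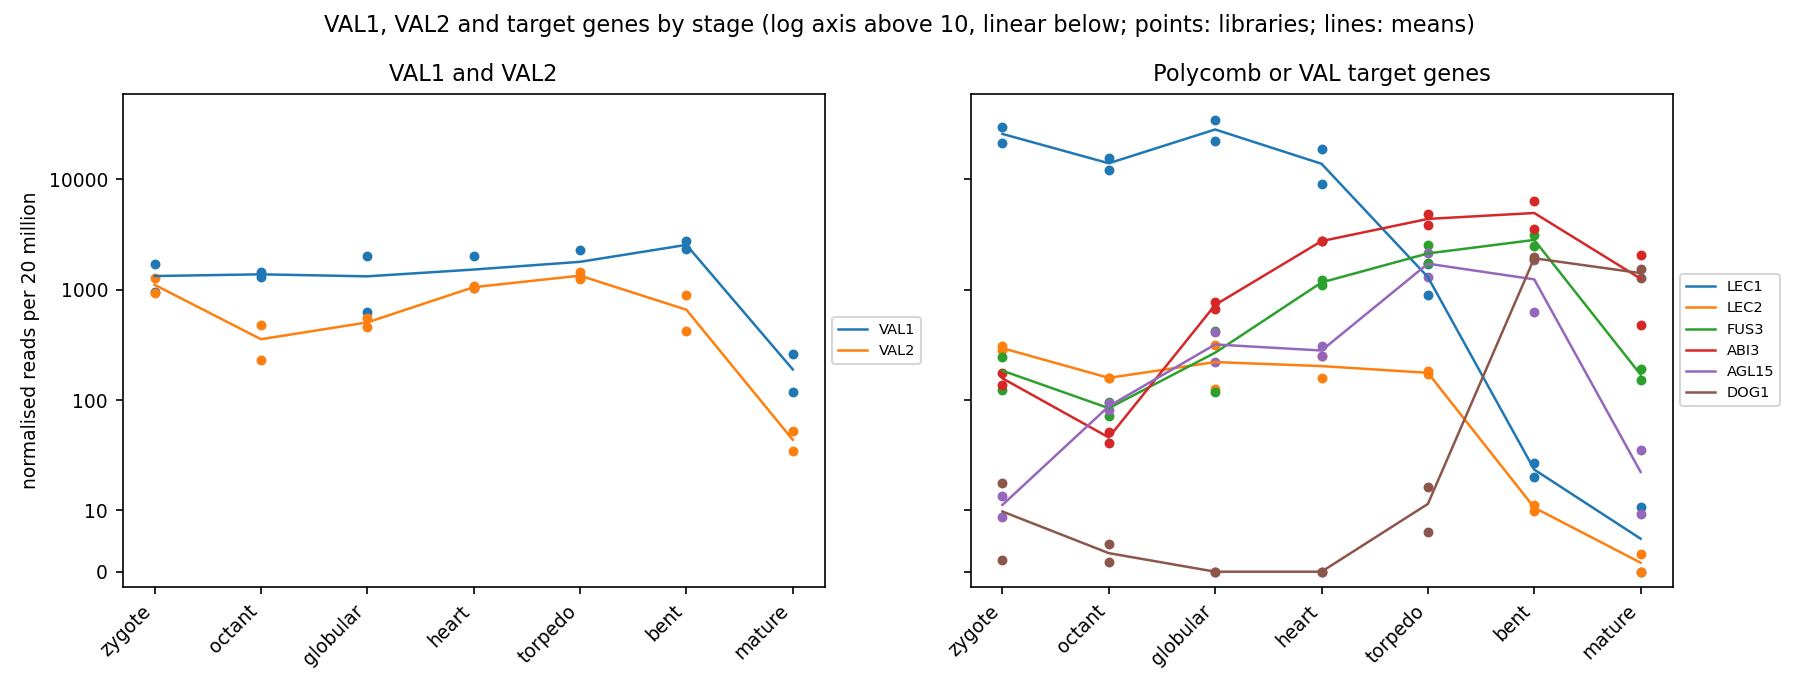
Normalised reads per 20000000 (log axis above 10, linear below) of VAL1 and VAL2 (left) and of 6 target genes (right) by stage, with points for libraries and lines for stage means (n = 2). Both VAL genes are lower in mature than in bent libraries, LEC1 and LEC2 fall in bent embryos, and DOG1 is at 1278 or more in bent and mature libraries and at or below 17.7 before.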

How the data were processed

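The authors deposited a normalised signal for each gene in each library, made from read counts. Per the labels' protocols, RNA was extracted with RNAqueous-Micro, amplified with MessageAmp aRNA and made into TruSeq libraries. TAIR10 is the build in the submitters' processing notes, and STAR, HTSeq, DESeq2, Trimmomatic, FastQC and CASAVA are the tools, with roles and versions not given in the sources used here. Each column summed to 20000000, not the DESeq2 scaling assumed in the plan. All values (100%) were whole multiples of 1 read within 0.001 reads. The 103 entries without gene identifier, 9.15% to 26.3% of reads, were left out of the tests. Of the named genes 24932 matched TAIR10.1.

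Genes at 10 or more in 2 libraries (18744, with 6670 left out) were tested on log2(value + 4) with limma 3.58.1 in R 4.3.3, stage as the only term, all 14 libraries, 7 residual and 7.81 prior degrees of freedom, and p-values adjusted over all genes after Benjamini and Hochberg at 0.05. Changes are later minus earlier stage. This scale understates changes of low genes. The fit was tested on simulated data for octant against zygote. In the simulation octant equalled zygote apart from the changed genes, which were drawn from genes at 50 or more in at least 2 libraries. The same dispersion, fixed in advance and not estimated from these data, was used for all genes. The fit recovered 91% of 4-fold and 21% of 2-fold changes and called 0.0438% of unchanged genes. These rates may not hold for the real libraries or for low genes. A difference that missed the threshold is therefore not shown to be absent. Floors are 3 reads, intervals are 95%. edgeR 4.0.16 and DESeq2 1.42.0 on recovered reads were alternatives, with pseudocounts, filters, scalings, the replicate block, the compared stages alone and each library left out. Members, lists and tests were chosen with earlier results of these data known. From each list, per comparison, up to 3 rises and 3 falls could be named, the largest with no overlap of libraries and a mean of 50 or more. List genes whose symbol was not paired with their locus in the reference were left out. P-values measure the spread between replicates as labelled.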

Additional observations from a re-analysis of the deposited data

How the results depend on the processing

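With 2 libraries per stage, the spread was shared between stages, and a library alone in its stage was assumed to vary like the others. MEA had 0 to 66 reads and FIS2 0 to 43 per library, which limits their precision. Of 29 calls 18 were lost under some alternative or left-out library, and 4 differences passed only under some alternative. These were MSI1 in globular against octant with medians set equal (1.10, adjusted p = 0.0301), MSI1 and VRN2 in torpedo against heart, and FIE in mature against zygote. Of the 29, 14 were lost with the compared stages alone, 9 with medians set equal, 9 with DESeq2, 8 with quantile normalization, 7 with upper-quartile scaling and 7 with edgeR. With medians set equal 13 of all 56 differences turned direction, 12 of them not called on either scale. Among differences called under some setting, the direction turned for EMF2 in mature against bent with medians set equal (0.058, adjusted p = 0.921) and for MSI1 in globular against octant without octant replicate 1 (-0.145), a difference that passed neither way and ranged from -0.145 to 0.757 as libraries were left out. The cause of these was not tested.

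Counts of members called moved by more than 1.5 times as follows. In globular against octant 3 became 1 with a filter at 50, with the compared stages alone and with DESeq2. In heart against globular 3 became 1 with medians set equal and 0 with the compared stages alone. In torpedo against heart 1 became 2 with a pseudocount of 16, 0 with a filter at 50 and 2 with the compared stages alone. In bent against torpedo 4 became 2 with a pseudocount of 1 or equal totals over named genes, 1 with quantile normalization, and 0 with upper-quartile scaling, medians set equal, the compared stages alone, edgeR or DESeq2. The fit of the compared stages alone has fewer samples, and a filter at 50 does not test MEA and FIS2. Of all 18744 genes, the compared stages alone gave 3794 calls in globular against octant and 897 in heart against globular. They gave 3317 in torpedo against heart and 0 in bent against torpedo. The main fit called 7210, 6476, 4765 and 5149 genes in these comparisons. In bent against torpedo the other settings listed called 3202 (edgeR) to 4536 (equal totals). With each library left out in turn, counts ranged from 5 to 6 in octant against zygote, 2 to 3 in globular against octant, 1 to 3 in heart against globular, 0 to 2 in torpedo against heart, 0 to 4 in bent against torpedo, 4 to 6 in mature against bent and 4 to 6 in mature against zygote, and all 8 passed the F test each time. The 0 in bent against torpedo came without torpedo replicate 1 or bent replicate 2. The 1 in heart against globular came without globular replicate 2 or heart replicate 1, the 0 in torpedo against heart without either heart library or torpedo replicate 2, and the 2 there without either mature library. Bent against torpedo had 2 without torpedo replicate 2. The fall of FIE there was lost without octant replicate 1 or 2, heart replicate 1 or 2, torpedo replicate 1 or bent replicate 2.

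Replicate numbers were not treated as pairs in the main fit, and the labels do not state whether they pair samples across stages. Deviations of same-numbered libraries correlated between -0.111 and 0.299 over 21 pairs of stages, with 3 over 0.1. With the replicate block the counts were 6, 3, 3, 1, 4, 6 and 6 over the comparisons in order, as without it.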

Other observations

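Across the 14 libraries FIE, MSI1, CLF, EMF2 and VRN2 had r of 0.566 to 0.942 with each other on log2(value + 4). VAL1 had r of 0.209 with VRN2 to 0.675 with CLF among these 5 genes, and MEA and FIS2 had 0.292 with each other. FIE and MSI1 had the highest correlation of any pair of members (r = 0.942), followed by FIE with EMF2 (0.902) and with VRN2 (0.866). MEA had r of -0.276 to 0.292 with all other members, and FIS2 was lowest with EMF2 (-0.508). These points share stages and library scaling, so r is a description over 14 libraries, with no test.

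The genes most like each member over the 14 libraries were sought among 15177 genes. The closest to FIE were PRMT4A, an arginine methyltransferase (r = 0.990), the ion antiporter KEA2 (0.987) and AGO6, which acts in RNA-directed DNA methylation (0.982). The closest to MSI1 was AT5G26680 (0.994), to CLF AT2G33410 (0.984), to VRN2 AT1G26640 (0.978), to EMF2 AT1G53200 (0.956) and to VAL1 LGT8 (0.952). MEA was closest to AT5G08350 (0.972) and the fucosyltransferase gene FUT6 (0.962). FIS2 had the lowest best match, FKBP12 (0.895), followed by the polymerase subunit NRPE7 (0.892).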
